A study of Mus musculus with 4 samples.

Results

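The genes described here are 10 small calcium-binding, membrane-binding, sugar-binding and cytoskeletal genes that are often read together in T cells: the S100 genes *S100a4*, *S100a6*, *S100a10* and *S100a11*, the annexins *Anxa1* and *Anxa2*, the galectins *Lgals1* and *Lgals3*, the LIM-domain gene *Crip1* and the intermediate filament gene *Vim*. They were chosen by name, with earlier results of these data known, and all 10 were found among the 13265 genes of the deposited table. The table holds 5080 small-intestinal YFP+CD4+ T cells of C57BL/6 mice aged 7 to 8 months, sorted and profiled by droplet-based single-cell RNA sequencing of the 3′ ends of transcripts. YFP marks cells in which *Il17a*, the gene of the TH17 cytokine IL-17A, has been switched on at some time, since all groups carried *Il17a-cre* (strain label Il-17a-CRE) and a *Rosa26*-stop-yfp reporter. TGFβR-KO mice also had floxed alleles of *Tgfbr2*, TGFβR-CA mice had a constitutively active *Tgfbr1* behind a floxed stop cassette, and TGFβR-WT mice had neither. Because Cre is driven by *Il17a*, the receptor was changed only in cells that had turned that gene on, and each library came from a pool of mice. There was 1 library of TGFβR-KO (label RKO, 2975 cells), 1 of TGFβR-CA (label RCA, 1098 cells) and a pool of 2 of TGFβR-WT (1007 cells). The first sequencing run held TGFβR-KO beside TGFβR-WT cells, and the second TGFβR-CA beside TGFβR-WT cells.

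S100 proteins are small EF-hand proteins that mostly act as dimers and change shape when they bind calcium. S100A10 is the exception that does not depend on calcium, and it forms a complex with annexin A2 at the plasma membrane. Annexins bind phospholipid membranes when calcium rises, galectins bind β-galactosides on glycoproteins inside and outside the cell, CRIP1 is a small zinc-binding LIM protein, and vimentin is an intermediate filament of lymphocytes and mesenchymal cells. In T cells, transcripts of this kind are known to be low in naive cells and higher in activated, effector and memory cells that move through tissue.

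Names of the TGFβR-WT cells end in one of 2 suffixes, which split them into 709 cells (the larger set) and 298 cells (the smaller set). Nothing ties a set to a TGFβR-WT sample, so they are technical sets and are given side by side as the measure of how far cells of 1 genotype differ. Values are corrected UMIs (unique molecular identifiers, 1 for each captured RNA molecule, adjusted to a common depth) per 10000 corrected UMIs summed over a group, called the level. The median corrected UMI number per cell ran from 3440 in the larger TGFβR-WT set to 3985 in the smaller, with the other libraries between them. TGFβR-KO and TGFβR-CA have 1 library each, so no test between conditions was possible and no p-value is given. A difference was called by size, where the level of one group was at least 1.5 times that of the other, and shares of cells carry exact Clopper-Pearson 95% intervals that cover counting error only. In RNA summed over cells, fewer cells with a transcript and less of it per cell cannot be told apart, so the share of cells above 0 is given too. The defining genes of CD4 T cells were present in every set (7 of 7 listed, summed level 95.2 to 115). Summed levels were at most 0.294 for 10 epithelial, 0.112 for 6 measured myeloid and 0.181 for 3 measured γδ T cell markers, of which 2 were at 0 in every set, and at most 0.703 for 5 B and plasma cell genes. The 3 regulatory T cell markers summed to 1.83 in TGFβR-KO and to 3.26 to 4.30 elsewhere, and their part in the differences below was not tested. Most of that sum was *Ikzf2*, at 1.29 in TGFβR-KO, 3.40 in pooled TGFβR-WT and 3.73 in TGFβR-CA. *Il2ra* did not follow it, at 0.476, 0.436 and 0.196 in the same order. *Foxp3* was above 0 in 1.04%, 2.09% and 0% of cells, so the sum is not a count of regulatory T cells. *Tgfbr2* stood at 1.48 in TGFβR-KO and 1.73 in TGFβR-WT, though a 3′ tag need not lie in the deleted part. *Tgfbr1* was lower in the library labelled TGFβR-CA (0.792) than in pooled TGFβR-WT (1.16), whose sets stood at 0.367 (larger) and 2.79 (smaller).

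The S100 genes among them lie on mouse chromosome 3 in the GRCm38 assembly (mm10, the build named for the files, here with the GENCODE vM21 annotation), in 2 places. *S100a4* (90603771 to 90606045) and *S100a6* (90612882 to 90624181) are neighbours on the plus strand with 6.837 kb between them. *S100a11* (93520488 to 93526287) and *S100a10* (93555080 to 93564643) lie 2896.31 kb further on and are 28.793 kb apart. The remaining genes are spread over the genome, *Vim* on chromosome 2 (13573927 to 13582826), *Anxa2* on 9 (69453620 to 69491795), *Crip1* on 12 (113146316 to 113153879), *Lgals3* on 14 (47367751 to 47386160), *Lgals1* on 15 (78926725 to 78930465) and *Anxa1* on 19 (20373428 to 20390944). *S100a4* lies inside a longer annotated gene of the same strand, *Gm42674*, *Anxa2* overlaps the antisense gene *Gm16144*, and *Anxa1* overlaps *1500015L24Rik* on the other strand, so UMIs of these genes may be shared or lost in counting, which was not tested.

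Promoter sequences from RefSeq (GRCm38.p6) were matched for 8 of the 10 genes, all but *S100a10* and *Lgals1*. The 250 bases before the transcript start are printed for *S100a4* and *S100a6*, which moved together below, and for *S100a11*, which did not pass 1.5 times over all cells, each 5′ to 3′ on the strand of the gene. Capitals mark matches to the motifs named after the sequences.
S100a4, chr3:90603520-90603769, plus strand: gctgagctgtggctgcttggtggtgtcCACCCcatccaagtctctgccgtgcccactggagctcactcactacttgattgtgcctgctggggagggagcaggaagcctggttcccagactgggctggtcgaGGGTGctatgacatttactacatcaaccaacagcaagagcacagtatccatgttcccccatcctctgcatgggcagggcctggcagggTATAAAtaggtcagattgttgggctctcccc
S100a6, chr3:90612644-90612893, plus strand: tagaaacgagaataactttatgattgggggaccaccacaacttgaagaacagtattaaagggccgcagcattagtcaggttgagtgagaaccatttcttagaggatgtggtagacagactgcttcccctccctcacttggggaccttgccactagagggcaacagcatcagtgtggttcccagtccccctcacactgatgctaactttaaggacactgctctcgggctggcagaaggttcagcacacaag
S100a11, chr3:93520246-93520495, plus strand: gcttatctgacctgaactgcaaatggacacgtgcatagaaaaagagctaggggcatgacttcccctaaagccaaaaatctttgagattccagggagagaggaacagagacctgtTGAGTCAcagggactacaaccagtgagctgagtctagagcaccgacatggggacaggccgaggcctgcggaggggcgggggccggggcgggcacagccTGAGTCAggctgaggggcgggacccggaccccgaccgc
The motifs were searched on both strands, so that a match on the other strand appears as the reverse complement. They were the KLF core CACCC, the AP-1 site TGACTCA, the TATA box written as TATAAA and the SMAD site written as CAGACA. No match overlaps another in the sequences printed. *S100a4* had a TATA box 31 bases before the start and a KLF core on each strand, *S100a11* had 2 AP-1 sites, at 136 and 38 bases before the start, and *S100a6* had none of these letters. Over 32851 promoters of the same length, 52.0% held the KLF core, 4.46% the AP-1 site, 12.4% the TATA box and 17.1% the SMAD site. The KLF core was found in 5 of the 8 promoters (*Anxa2*, *Crip1*, *Lgals3*, *S100a4* and *Vim*), the TATA box in 4 (*Anxa1*, *Anxa2*, *S100a4* and *Vim*), the AP-1 site in 2 (*Anxa2* and *S100a11*) and the SMAD site in 1 (*Lgals3*). Motif matches are descriptions of these windows, and binding was not measured here.

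The comparison of TGFβR-KO with TGFβR-WT asks what changes in cells with an *Il17a* history when they lose the TGFβ receptor. Over all cells, the neighbours *S100a4* and *S100a6* had the highest ratios to TGFβR-WT of the 9 genes with one (3.70 and 3.37), *Lgals1* and *Crip1* came next (2.09 and 2.16), *S100a10* and *S100a11* moved by less than 1.5 times, and *Anxa1* was above 0 in TGFβR-KO cells only. *S100a4*, whose product binds non-muscle myosin, stood at 6.99 in TGFβR-KO, 2.35 in the larger TGFβR-WT set, 0.948 in the smaller set and 0.867 in TGFβR-CA. TGFβR-KO was thus the highest of the sets, 2.98 and 7.37 times the larger and the smaller TGFβR-WT set, and TGFβR-CA lay next to the smaller set. The share of cells above 0 was 51.5% (95% interval 49.6 to 53.3) in TGFβR-KO, 22.0% and 14.8% in the TGFβR-WT sets and 13.1% in TGFβR-CA, and a cell with the transcript held a mean of 5.24 corrected UMIs in TGFβR-KO and 3.52 in pooled TGFβR-WT. *S100a6*, a partner of the ubiquitin-ligase adaptor CACYBP, was at 9.25 in TGFβR-KO, 3.1 and 2.003 in the larger and the smaller TGFβR-WT set, and 2.97 in TGFβR-CA. Here TGFβR-CA lay between the TGFβR-WT sets, and TGFβR-KO was 2.98 and 4.62 times those sets. The share of cells was 54.4% in TGFβR-KO against 31.0% and 30.2% in the TGFβR-WT sets and 37.8% in TGFβR-CA, so TGFβR-KO stood above each other set in share and in level.

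The pair on the same chromosome 2896.31 kb away behaved otherwise. *S100a10*, the annexin A2 partner, was at 16.8 in TGFβR-KO, 13.3 and 11.2 in the larger and the smaller TGFβR-WT set and 10.4 in TGFβR-CA, a ratio of 1.34 to pooled TGFβR-WT. *S100a11*, another annexin-binding S100 protein, was at 13.9, 14.7, 10.7 and 10.8 in the same order, so the larger TGFβR-WT set was higher than TGFβR-KO. Both genes were near saturation as a share of cells, from 90.5% to 95.9% for *S100a10* and from 94.5% to 96.2% for *S100a11*. A positive cell held a mean of 6.77 corrected UMIs of *S100a10* in TGFβR-KO and 5.06 in pooled TGFβR-WT, and 5.57 and 5.22 of *S100a11*.

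*Anxa2* was at 0.897 in TGFβR-KO, 0.463 and 0.536 in the larger and the smaller TGFβR-WT set and 0.513 in TGFβR-CA, and the last 3 lay close together. TGFβR-KO was 1.84 times pooled TGFβR-WT, and 22.0% of its cells were above 0 against 11.3%. *Anxa1*, which encodes the pro-resolving annexin that dampens inflammation, was found in 49 TGFβR-KO cells with 63 corrected UMIs, 1.65% of cells (95% interval 1.22 to 2.17). It was listed at 0 in all 1007 TGFβR-WT cells, which allows a share of up to 0.298%, and in all 1098 TGFβR-CA cells, which allows up to 0.273%. These limits hold for the cells as mixed in each condition. At 63 corrected UMIs it fell under the minimum of 200 used for all-gene comparisons, which the other 9 genes passed. Of the TGFβR-KO cells with *Anxa1*, 25 were in the Tumorigenic cluster and 14 in the Migratory cluster. TGFβR-WT has 5 and 89 cells in these clusters, where 0 cells allow a share of up to 60% and 3.37%, so a level like that of the same TGFβR-KO clusters (6.93% and 1.68% of cells) was not excluded at this depth.

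*Lgals1*, which encodes galectin-1, was at 10.9 in TGFβR-KO, 6.2 and 3.13 in the larger and the smaller TGFβR-WT set and 3.09 in TGFβR-CA, present in 74.5%, 56%, 47.7% and 47.3% of cells. *Lgals3*, which encodes galectin-3, was at 0.517, 0.383, 0.0742 and 0.0365 in that order. The larger TGFβR-WT set was therefore nearer to TGFβR-KO than to the smaller TGFβR-WT set for *Lgals3*, where TGFβR-KO was 1.35 times the larger and 6.96 times the smaller set. The smaller set held 9 corrected UMIs of *Lgals3* in 4 cells. *Crip1* was at 7.72, 4.37, 1.94 and 1.79, the same order of sets as *Lgals1*, with 66.9% of TGFβR-KO cells above 0 and 37.3% of TGFβR-CA cells. *Vim* had another order, 5.51 in TGFβR-KO, 2.82 in the larger set, 4.57 in the smaller set and 1.86 in TGFβR-CA. It was the 1 gene of the 10 that was lower in the larger than in the smaller TGFβR-WT set by more than 1.5 times. Of the 554 corrected UMIs of *Vim* in the smaller set, 86 came from its 3 Tumorigenic cells.

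**Figure D1:**
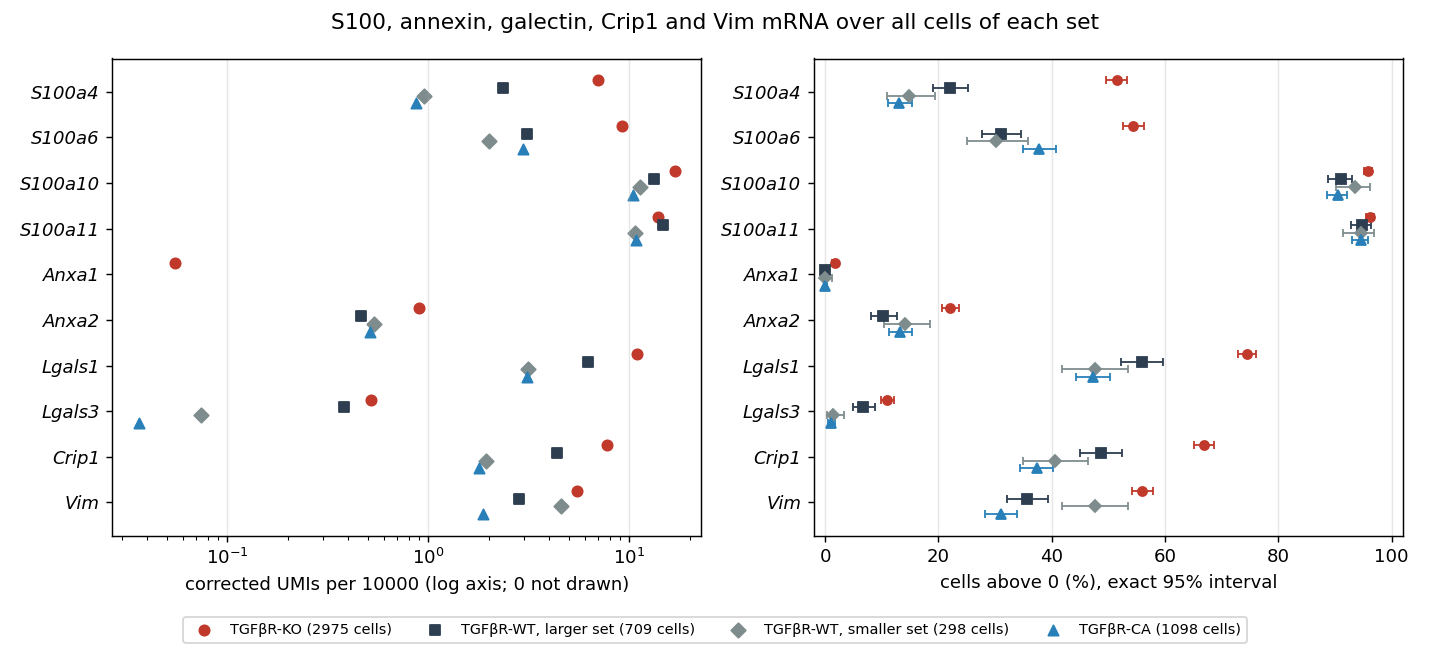
Left, level of each gene in corrected UMIs per 10000 on a log axis over all cells of each of the 4 sets. Right, share of cells above 0 in percent with exact 95% intervals. *S100a4* and *S100a6* in TGFβR-KO (6.99 and 9.25) sit apart from the other sets, *S100a10* and *S100a11* differ little between sets, and *Anxa1*, at 0 outside TGFβR-KO, has a point there only.

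In all, 7 of the 9 genes with a ratio were higher in TGFβR-KO than in pooled TGFβR-WT by at least 1.5 times (*S100a4*, *S100a6*, *Anxa2*, *Lgals1*, *Lgals3*, *Crip1* and *Vim*), where 4.3% of all 7485 genes tested were, and 4 passed 2 times. None was lower, where 10.5% of all genes were. The median ratio was 1.84 for the 9 genes and 0.888 for all genes. Since the genes were chosen with earlier results of these data known, these shares are a description and not a test. Against each TGFβR-WT set taken alone, 5 of 9 passed (*S100a4*, *S100a6*, *Anxa2*, *Lgals1* and *Crip1*), where 2.76% of all genes did, and *Lgals3* and *Vim* did not. Between the TGFβR-WT sets, 6 of the 9 differed by at least 1.5 times: *S100a4*, *S100a6*, *Lgals1*, *Lgals3* and *Crip1* were higher in the larger set (11.7% of all genes were) and *Vim* was lower (10.2%). These differences ran from 1.55 times for *S100a6* to 5.16 times for *Lgals3*, so the ratio to pooled TGFβR-WT depends on which set the reader takes. Cell barcodes shared between libraries were few, 14 of TGFβR-KO with the larger TGFβR-WT set and at most 1 for any other pair.

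Over all cells of a set, a cell carried more of these transcripts at once in TGFβR-KO. A median of 5 of the 10 genes was above 0 per TGFβR-KO cell, 4 in each TGFβR-WT set and 3 in TGFβR-CA. At least 7 of the 10 were above 0 in 32.7% of TGFβR-KO cells (95% interval 31.0 to 34.4), 13.5% of the larger TGFβR-WT set, 7.38% of the smaller set and 5.74% of TGFβR-CA. At the other end, 22.6% of TGFβR-KO cells and 46.6% to 52.6% of the cells of the other sets had 3 or fewer. These shares mix cluster makeup with levels inside the clusters described below. In Migratory cells, 49.2% of TGFβR-KO and 49.3% of the larger TGFβR-WT set had at least 7, and in TR-TFH cells 2.31% and 2.45%. In Activated cells the shares were 21.7% and 19.3%, in Pre-tumorigenic 33.9% and 29.6%, in GC-TFH 5.66% and 2.84% and in Cycling 61.0% and 39.0%. The genes summed to a level of 72.5 in TGFβR-KO, 47.6 and 35.2 in the TGFβR-WT sets and 32.3 in TGFβR-CA, which is 0.725% of corrected UMIs in TGFβR-KO and 0.323% in TGFβR-CA. All cells in the table are CD4 T cells, so the level that free RNA gives in a cell type without these genes was not measured.

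**Figure D2:**
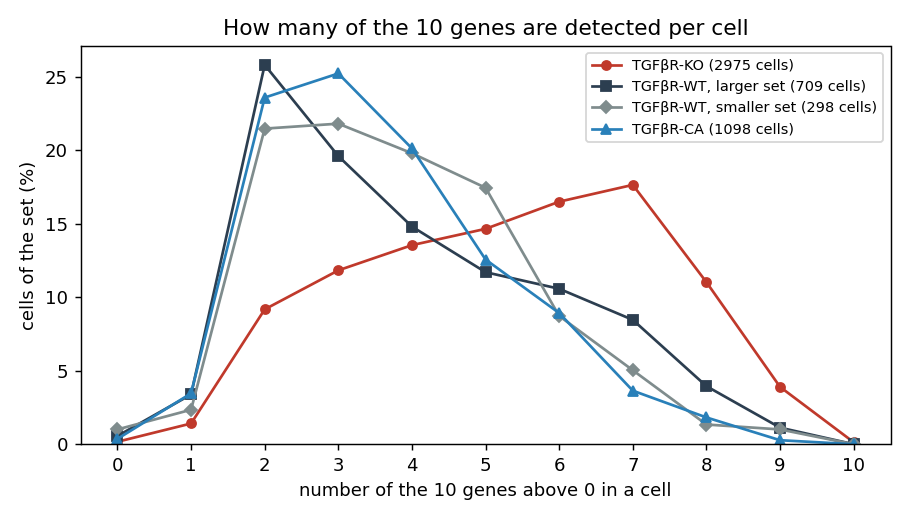
Share of cells in percent by the number of the 10 genes above 0, for each set. TGFβR-KO has its peak at 7 genes (17.6% of cells), the larger TGFβR-WT set at 2, and the smaller TGFβR-WT set and TGFβR-CA at 3.

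Every cell carries one of 8 deposited cluster names. The clusters were made by the authors with these genes among the others, so levels by cluster are a description. In TGFβR-KO the 10 genes were high in the Tumorigenic, Cycling and Migratory clusters (summed levels 122.7, 106.0 and 96.5) and low in both follicular helper clusters, GC-TFH (37.6) and TR-TFH (29.97). A median of 7 of the 10 genes per cell was above 0 in the Tumorigenic cluster and 3 in TR-TFH. The same contrast held in the larger TGFβR-WT set, with 87.6 in Migratory, 84.3 in Cycling, 32.4 in GC-TFH and 32.9 in TR-TFH, and in TGFβR-CA, with 65.3 in Migratory, 27.0 in GC-TFH and 27.6 in TR-TFH. The smaller TGFβR-WT set was low in GC-TFH (26.4) and TR-TFH (26.3) too but not high in Migratory. Its 16 Migratory cells summed to 35.8, below its 29 Activated cells at 52.2, and its *S100a4* was at 1.92 in Migratory against 10.1 in the same cluster of the larger set.

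Genes differed in where they peaked. In TGFβR-KO, *S100a4* was at 12.5 in Tumorigenic, 11.9 in Migratory and 10.7 in Cycling cells, whose shares above 0 overlapped between neighbours (80.6%, 76.9% and 68.8%), and at 0.716 in TR-TFH with 11.2% of cells. *S100a6* was at 19.0 in Tumorigenic and 1.95 in TR-TFH. *Crip1* followed it, at 18.4 in Tumorigenic and 1.62 in TR-TFH. *Lgals1*, *Anxa2* and *Vim* had their highest level in the 77 Cycling cells, at 26.4, 2.57 and 14.3. Tumorigenic cells came next, at 21.8, 2.29 and 11.2, and the intervals of the shares of cells overlapped. *Anxa2* was above 0 in 49.0% of Tumorigenic and 46.8% of Cycling cells. The same genes were also highest in the 41 Cycling cells of the larger TGFβR-WT set, at 25.6, 2.19 and 10.3, among its clusters of at least 20 cells. *S100a10* was highest in Migratory (23.7) and lowest in GC-TFH (7.79). *S100a11* was the flattest, from 9.67 in Cycling to 15.8 in Activated, and the Cycling cluster, which held the top of *Lgals1*, was its low point also in the larger TGFβR-WT set (7.90). *Lgals3* and *Vim* separated the follicular helper clusters from the rest. *Lgals3* was at 0.0487 in GC-TFH and 0.0311 in TR-TFH against 0.302 or more in each of the other clusters of TGFβR-KO. *Vim* was at 0.771 in GC-TFH and 0.825 in TR-TFH against 4.23 or more in the same clusters.

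**Figure D3:**
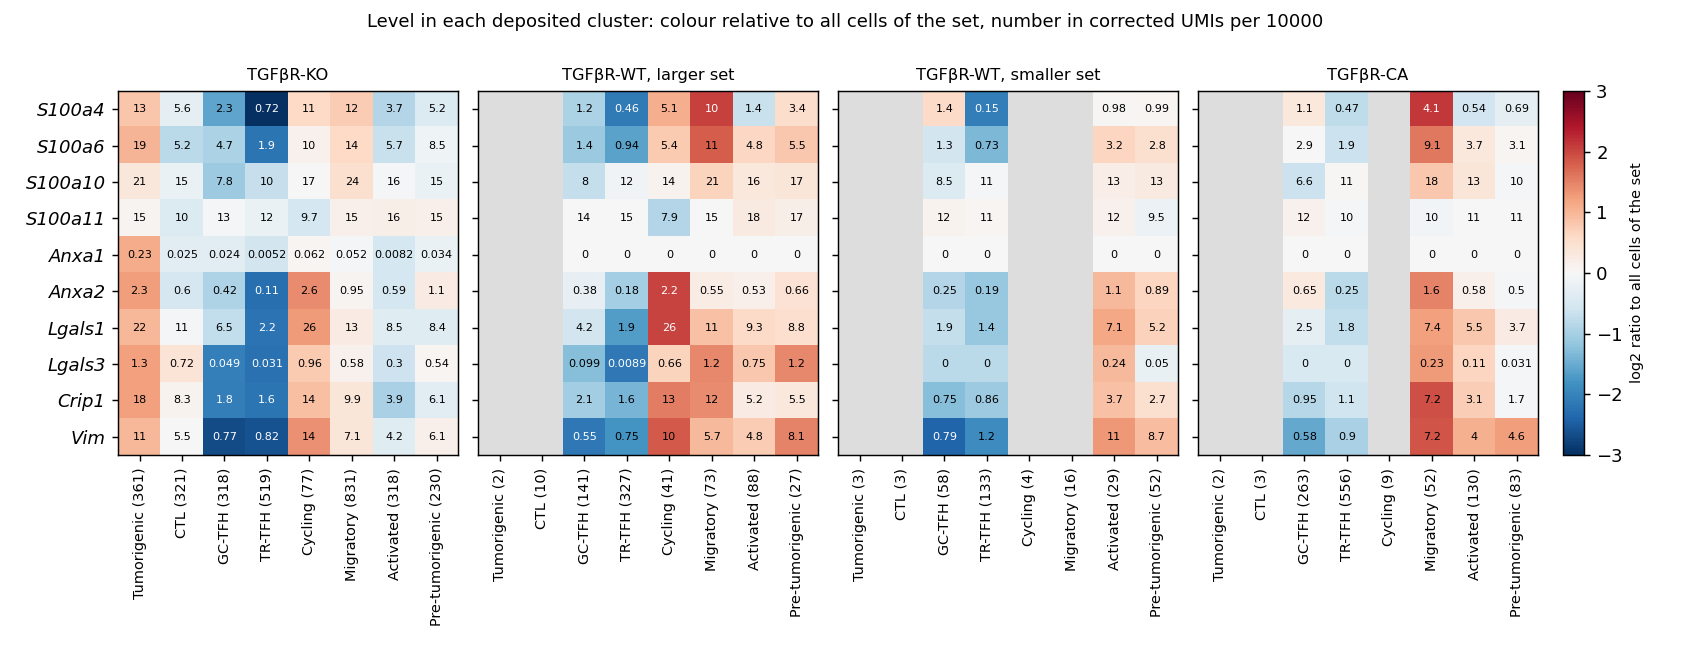
Level of each gene (rows) in each deposited cluster (columns, with cell numbers) of the 4 sets. Numbers are corrected UMIs per 10000, colour is the log2 ratio to all cells of that set after 0.1 was added, and grey marks clusters under 20 cells. TR-TFH is blue for most genes in each set and GC-TFH in all but TGFβR-CA, *S100a11* is pale throughout, and *Anxa1* is at 0 outside TGFβR-KO.

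The Migratory cluster of TGFβR-KO was at least 1.5 times the rest of that library for 3 of the 10 genes, *S100a4* (2.36 times), *S100a6* (1.89 times) and *S100a10* (1.68 times), where 3.49% of all genes were. The median was 1.37 for the 10 genes and 0.9998 for all genes. *Crip1* (1.45 times) and *Vim* (1.45 times) lay just under the threshold. The Tumorigenic cluster was at least 1.5 times the Pre-tumorigenic cluster for 8 of the 10 genes, where 11% of all genes were. These ran from 1.83 times for *Vim* to 3.03 times for *Crip1*, and to 6.78 times for *Anxa1*, which rested on 33 and 3 corrected UMIs. *S100a10* (1.46 times) and *S100a11* (0.952 times) did not pass, *S100a10* by little. Since the clusters were drawn from the same cells, these shares are not tests.

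Cluster makeup differed strongly between conditions. Tumorigenic, CTL and Migratory cells made up 1513 of the 2975 TGFβR-KO cells and 107 of the 1007 TGFβR-WT cells, so ratios over all cells mix makeup with levels inside clusters. Levels were therefore compared within the 4 clusters with at least 20 cells in TGFβR-KO and in each TGFβR-WT set. In GC-TFH, 3 of 9 genes were at least 1.5 times higher in TGFβR-KO than in pooled TGFβR-WT (*S100a4*, *S100a6* and *Lgals1*; background 7.1% of genes) and 0 were lower (14.2%). In TR-TFH, 3 of 9 were higher (*S100a4*, *S100a6* and *Lgals3*, where 3.69% of all genes were) and 1 was lower (*Anxa2*, where 15.8% were). In Activated cells, 1 of 9 was higher (*S100a4*, 9.9%) and 2 were lower (*Lgals3* and *Vim*, 18.8%), close to the shares of all genes. In Pre-tumorigenic cells, *S100a4*, *S100a6* and *Crip1* were higher (15.2%) and 0 were lower (26.8%). *Lgals3* in TR-TFH rested on 1 corrected UMI in TGFβR-WT, so no ratio is given for it.

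Each TGFβR-WT set was then taken singly. The genes higher against both sets were *S100a4*, *S100a6* and *Lgals1* in GC-TFH (3% of all genes passed), *S100a4* and *S100a6* in TR-TFH (1.71%), *S100a4* in Activated (3.55%) and *S100a4* and *S100a6* in Pre-tumorigenic cells (4.86%). *Anxa2* was lower against both sets in TR-TFH, at 0.109 in TGFβR-KO against 0.178 and 0.187 (1 of 8 genes with a ratio, where 8.16% of all genes were lower). These *Anxa2* levels rested on 21, 20 and 10 corrected UMIs. The intervals of its shares of cells overlapped (3.47% in TGFβR-KO, 4.28% and 6.77% in the larger and the smaller set). In GC-TFH cells, *S100a6* was at 4.75 in TGFβR-KO and at 1.39 and 1.32 in the larger and the smaller TGFβR-WT set, which are 3.43 and 3.59 times, and 44.0% of TGFβR-KO cells were above 0 against 22.6% of pooled TGFβR-WT cells. Its level in TR-TFH cells was 1.95 in TGFβR-KO against 0.944 and 0.729. *S100a4* in Activated cells was at 3.73 in TGFβR-KO against 1.43 and 0.976, in 42.1% of cells against 21.4%. In GC-TFH it was at 2.28 against 1.17 and 1.45, and its ratio to the larger set was close to the threshold in TR-TFH (1.54) and Pre-tumorigenic cells (1.53). *S100a6* in Activated cells did not pass against the larger set (1.19 times). For *S100a10*, all of the 8 ratios in these clusters lay between 0.853 and 1.27.

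The Migratory cluster was compared with the larger TGFβR-WT set alone, since the smaller set has 16 such cells. There *S100a4* was at 11.9 in TGFβR-KO and 10.1 in the larger set, and *S100a6* at 13.9 and 11.1, neither past 1.5 times. *Anxa2* was 1.71 times higher, the 1 of 9 genes that passed (11.2% of all genes did). *Lgals3* was lower, at 0.576 against 1.22, again 1 of 9 (17.9%). These counts are no more than the shares of all genes, and *Anxa2* rested on 15 corrected UMIs in 12 cells of the larger set. In the Cycling cluster, where the larger set has 41 cells and the smaller set 4, *S100a4* was at 10.7 in TGFβR-KO and 5.11 in the larger set (2.08 times) and *S100a6* at 10.1 and 5.45 (1.86 times). High levels in a cluster thus went with a small difference in Migratory cells and with a larger one in Cycling cells. With the level of each cluster weighted by the cluster shares of TGFβR-WT, 2 of 9 genes still passed, *S100a4* (1.77 times) and *S100a6* (1.86 times). *Lgals1* was then 1.27, *Crip1* 1.07, *Anxa2* 1.05 and *S100a10* 0.995 times, and *Vim* (0.871) and *Lgals3* (0.769) were below 1.

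**Figure D4:**
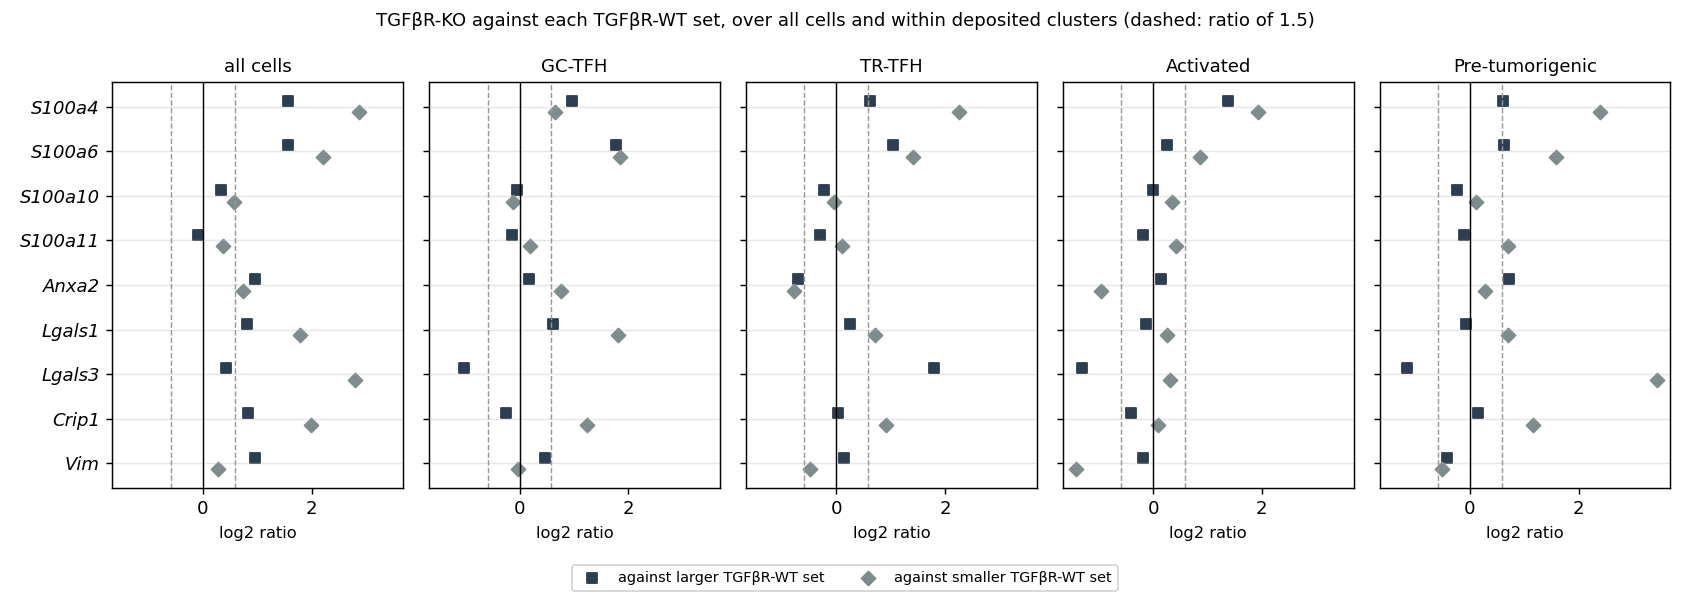
Log2 ratio of the level in TGFβR-KO to that in the larger (squares) and the smaller (diamonds) TGFβR-WT set, over all cells and within 4 clusters, with dashed lines at a ratio of 1.5. A missing point is a TGFβR-WT set at 0. *S100a4* lies past the upper line against both sets in each panel, and *S100a6* in each but Activated. *S100a10* stays inside the lines (1.496 times at most, against the smaller set over all cells), and *S100a11* leaves them once, against the smaller set in Pre-tumorigenic cells (1.62 times).

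The comparison of TGFβR-CA with TGFβR-WT asks the converse, what constant receptor activity does. Over all cells, 0 of 9 genes were higher by 1.5 times (2.43% of all genes were) and 5 were lower (7.13%): *S100a4* (0.459 times), *Lgals1* (0.594), *Lgals3* (0.129), *Crip1* (0.502) and *Vim* (0.550). The median was 0.594 for the 9 genes and 0.926 for all genes. Much of this was set by the larger TGFβR-WT set. Against the smaller set alone, *S100a4* was 0.915, *Lgals1* 0.986 and *Crip1* 0.926 times, and of the 5 only *Lgals3* (0.492) and *Vim* (0.408) were lower against both sets, where 2.73% of all genes were. *Lgals3* was found in 11 of 1098 TGFβR-CA cells, 1.002% against 5.06% of pooled TGFβR-WT cells and 1.34% of the smaller set. The intervals of the shares in TGFβR-CA and in the smaller set overlapped, so *Lgals3* was not clearly lower by share there. Its ratio of 0.492 rested on 16 corrected UMIs in TGFβR-CA and on 9, in 4 cells, in the smaller set. Of those 9, 5 came from the 3 Tumorigenic cells of that set.

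Inside the follicular helper clusters TGFβR-CA was not low for all genes. *S100a6* in GC-TFH cells was at 2.92 in TGFβR-CA against 1.39 and 1.32 in the TGFβR-WT sets, and in TR-TFH cells at 1.85 against 0.944 and 0.729. It was found in 40.3% and 29.3% of TGFβR-CA cells of these clusters and in 22.6% and 16.3% of pooled TGFβR-WT cells. In both clusters *S100a6* was thus higher than in either TGFβR-WT set in both TGFβR-KO and TGFβR-CA, and the TR-TFH levels of TGFβR-KO (1.95) and TGFβR-CA (1.85) were near each other. Along with *S100a6*, *Anxa2* passed 1.5 times against both sets in GC-TFH, at 0.653 against 0.376 and 0.248 (2 of 8 genes with a ratio, where 3.19% of all genes passed), and *S100a6* alone did in TR-TFH (1 of 8, 1.77%). The *Anxa2* levels in GC-TFH rested on 70, 19 and 6 corrected UMIs, and the intervals of its shares of cells (16.7%, 7.80% and 10.3%) overlapped. *S100a4* did not follow *S100a6*, at 1.10 in GC-TFH of TGFβR-CA against 1.17 and 1.45. The neighbours *S100a4* and *S100a6*, which were both higher in TGFβR-KO, were therefore not both higher in TGFβR-CA. In Activated and Pre-tumorigenic cells the genes that passed in TGFβR-CA were lower. *S100a4* in Activated cells was at 0.545 in TGFβR-CA against 1.43 and 0.976, and *Lgals3* was lower there too (2 of 9, where 8.81% of all genes were lower against both sets). In these cells *Lgals3* rested on 6 corrected UMIs in TGFβR-CA and on 3, in 1 cell, in the smaller TGFβR-WT set. Its share of cells was 3.85% in TGFβR-CA and 3.45% in the smaller set, so it was not lower by share there. *Crip1* in Pre-tumorigenic cells was at 1.72 against 5.49 and 2.72, *Vim* at 4.61 against 8.12 and 8.72, and *Lgals3*, which rested on 1 corrected UMI in TGFβR-CA, was also lower (3 of 9, where 14.4% of all genes were). TGFβR-KO and TGFβR-CA share their TGFβR-WT controls, so these comparisons are not independent.

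Across single cells the genes went together loosely. Among the 831 Migratory cells of TGFβR-KO, Pearson's r over the 45 pairs of genes ran from -0.03 to 0.495 with a median of 0.234, and 27 pairs were over 0.2. The closest pairs were *S100a4* with *Lgals1* (0.495) and *Lgals1* with *Vim* (0.492). Among the 519 TR-TFH cells of the same library the median was 0.0758, and the neighbours *S100a4* and *S100a6* formed the closest pair (0.419). Cells of 1 library share its depth and free RNA, and no p is given.

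Over 23 groups of at least 20 cells (each set by cluster), genes outside the 10 whose levels went closely with the summed level were *Sh3bgrl3* (Spearman's rho 0.933), *Emp3* (0.923), *Cdc42* (0.918) and *Tagln2* (0.902), among 7481 genes compared on log2 of the level plus 0.1. Those most like *S100a4* were *Dnajc15* (0.876), *Actb* (0.864) and *Sh3bgrl3* (0.849). Of the 10 themselves, *Crip1* went most closely with the sum (0.976) and *S100a11* least (0.145). The sum holds each of these genes, so their values cannot be set beside those of outside genes. The groups share libraries, and these values describe levels only.

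Of 41 listed relatives (other S100, annexin, galectin, CRIP and intermediate filament genes), 23 were in the table and 10 reached 200 corrected UMIs. Of these 10, 3 were higher in TGFβR-KO against both TGFβR-WT sets, where 2.76% of all genes were, and 0 were lower, where 5.45% were. *S100a13*, 79.19 kb from *S100a4*, was at 4.73 in TGFβR-KO, 2.84 and 1.57 in the TGFβR-WT sets and 2.14 in TGFβR-CA. *Anxa6*, another membrane-binding annexin, was at 2.31, 1.19, 1.15 and 0.675. *Lgals7* was at 0.223, 0.0758, 0.148 and 0.0662 and rested on 86 of 2975 TGFβR-KO cells. *Anxa5*, the annexin known as a probe for dying cells, was at 0.934 in TGFβR-KO and 0.928 in pooled TGFβR-WT, a ratio of 1.01, so higher levels were not general to annexins. Those with most corrected UMIs in the remaining families did not pass 1.5 times, *Lgals9* at 0.429 in TGFβR-KO against 0.567 in pooled TGFβR-WT, *Csrp1* at 0.313 against 0.395 and *Lmnb1*, a nuclear lamin, at 1.21 against 1.28.

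Of 10 measured partners of these proteins, *Ahnak*, a scaffold that binds S100A10 with annexin A2, was higher in TGFβR-KO than in pooled TGFβR-WT (1.54 times) but not against both sets. *Mgat5*, which builds the branched N-glycans that galectins bind, was lower, at 0.268 in TGFβR-KO against 0.439 and 0.503 in the TGFβR-WT sets. Of 11 measured genes of egress and motility, 5 were higher and 2 lower against pooled TGFβR-WT, where 4.3% of all genes were higher and 10.5% lower. This list too was chosen with earlier results of these data known. *Klf2*, a transcription factor of T cell trafficking, was at 6.50 in TGFβR-KO, 1.84 and 1.10 in the TGFβR-WT sets and 0.865 in TGFβR-CA, the order of sets that *S100a4* had. *Emp3*, *Tagln2* and *Selplg* (the selectin ligand PSGL-1) were also higher against both sets, at 4.35, 5.55 and 2.67 in TGFβR-KO against 1.99, 2.79 and 1.48 in pooled TGFβR-WT. *Capg*, an actin-capping gene, went the other way, at 1.22 in TGFβR-KO against 2.50 and 5.85, as did *Ccr7*, the lymph node homing receptor, at 0.110 against 0.247 and 0.256.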

How the data were processed

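YFP+CD4+ T cells were profiled in 4 libraries. Per the labels and methods, the authors aligned and counted reads with Cell Ranger 3.1.0 on mm10, kept cells with 1000 to 5000 features and under 10% mitochondrial UMIs, normalized with SCTransform in Seurat (version not given in the sources used here), integrated, clustered, and took out γδ T and epithelial cells. They deposited natural log values of the corrected UMI plus 1. Undoing the log gave whole numbers (tolerance 1e-06) that differ from raw counts, so the depth of each cell is unknown, count models were not used, and 1 library a condition allowed no test.

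Levels, ratios (at least 1.5, genes with at least 200 corrected UMIs) and shares were computed in Python 3.11.15 with numpy 2.4.6, pandas 2.3.3, scipy 1.17.1 and matplotlib 3.10.9. Only the ratio between whole groups was tried on simulated data. Those were pooled counts without spread between cells, clusters or libraries. Over all cells, corrected UMIs summed to 11479720 in TGFβR-KO, 4382832 in TGFβR-CA and 3719565 in TGFβR-WT. Clusters are the deposited names, and doublets were not called. The 10 genes and the other gene lists were chosen with earlier results of these data known. All 10 are named with values. From the lists of relatives, partners, and egress and motility genes, those past 1.5 times against both TGFβR-WT sets and the most abundant relative of each family are named, and *Anxa5* and *Ahnak* were chosen after their values were seen. Genes of like pattern were taken as the 5 most like the sum, of which 1 is not reported here, and the 3 most like *S100a4*.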

Additional observations from a re-analysis of the deposited data

How the results depend on the processing

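No paired analysis was possible because TGFβR-KO and TGFβR-CA have 1 library each and TGFβR-WT cells are not tied to their samples. The number of genes higher in TGFβR-KO, 7 of 9, became 2 with cluster levels weighted by TGFβR-WT shares (*Lgals3* 0.769, *Vim* 0.871), 3 without the CTL, Tumorigenic and Migratory clusters (chosen after seeing the data) and 4 at a ratio of 2. The number lower in TGFβR-CA, 5, became 2 against the smaller TGFβR-WT set, with weighted clusters, or at a ratio of 2. Between the TGFβR-WT sets, the 1 lower gene became 0 with weighted clusters (also chosen after seeing the data) or at a ratio of 2, where 3 were higher in place of 5. For Migratory against other TGFβR-KO cells, 3 became 6 with the mean of log values, 5 with ribosomal, mitochondrial and the 10 genes left out of the total, and 1 at a ratio of 2. Within clusters, 10 of 36 gene and cluster pairs were higher and 3 lower. At a ratio of 2 these were 6 and 1, and against the smaller TGFβR-WT set alone 17 of 34 were higher. Without a minimum of corrected UMIs, 7.75% of all genes were higher in TGFβR-KO. The other 71 counts and percentages stayed within 1.5 times, including those without 32 cells of shared barcode, 200 cells with 2 or more markers of another cell type or 3 cells above 5% mitochondrial UMIs. *S100a4* and *S100a6* stayed past 1.5 times in TGFβR-KO under all 10 alternatives tried. With 1 library a condition, differences between mice, pools and runs cannot be told apart from the genotype, and rare transcripts such as *Anxa1* and *Lgals3* rest on few UMIs.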
